A study of Mus musculus with 38 samples.

Results

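The comparison set 3 RNA sequencing libraries of mouse embryonic stem cells grown for 8 days with a MEK inhibitor (MEKi/L, replicates 1 to 3) against 2 libraries grown for 24 days with a GSK3 inhibitor (GSK3i/L, replicates 2 and 3), 5 of the 38 samples in the series. The libraries were chosen by culture label alone. All cells were E14, a male line of 129/Ola origin kept without feeder cells on gelatin, plated in serum with LIF (S/L) and moved the next day to serum-free N2B27 with LIF. MEKi/L held 1 µM of the inhibitor that the labels name PD03259010 and no GSK3 inhibitor. GSK3i/L held 3 µM CHIR99021 and no MEK inhibitor. Inhibitor and culture time (8 against 24 days) changed together and cannot be told apart in this comparison. A single cell line was used, and the labels call the libraries biological replicates without saying how the cultures were separated, so the p-values measure the spread between these libraries. Libraries grown for 8 days with both inhibitors (2i/L, 3 libraries) shared the estimate of the spread and, with GSK3i/L at 8 days (3 libraries) and S/L at 8 days (3 libraries), are used for levels only.

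MEK is the kinase that activates ERK, the last kinase of the pathway that FGF4 drives in these cells, and active ERK induces its own inhibitors, among them the Sprouty and Spred proteins and the DUSP phosphatases. GSK3 marks beta-catenin for destruction, so that a GSK3 inhibitor lets beta-catenin accumulate and act at TCF/LEF sites, which relieves repression by TCF7L1 and induces feedback genes such as Axin2. Combined, the inhibitors and LIF hold mouse embryonic stem cells in the naive state of the early epiblast. The comparison therefore sets cells given a block of ERK signalling against cells given a stimulus of beta-catenin signalling.

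Values were RPM, the reads of a gene scaled to library size and not divided by gene length, so levels are compared within a gene and never between genes. Of 14498 genes tested with limma, 4855 were higher in MEKi/L at an adjusted p under 0.05, which is 33.5% of those tested, and 2094 were lower, which is 14.4% (47.9% in either direction). At least 2-fold, 3000 genes (20.7%) were higher and 1259 (8.68%) were lower. The median difference over all tested genes was 0.30 (log2, MEKi/L minus GSK3i/L), and once each library was centred on its own median 3497 genes were higher and 3288 lower, so that the higher genes made up 69.9% of the calls as deposited and 51.5% after centring. Differences of 0.30 or less are therefore at the level of the typical gene. Counts in the lists below are to be read beside the 33.5% higher and 14.4% lower over all tested genes. Those after centring stand beside 3497 and 3288 of the 14498 tested genes. Without GSK3i/L replicate 2, which leaves 1 library on that side, 2803 genes were higher and 929 lower, and without GSK3i/L replicate 3 4173 were higher and 1232 lower.

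Libraries also differed in their share of long and short transcripts. A score of the mean log2 level of 37 long transcripts minus that of 40 short respiratory chain transcripts was 0.66, −1.86 and −1.46 in MEKi/L and −3.71 and −3.09 in GSK3i/L, so the groups did not overlap and MEKi/L replicate 1 stood apart. Of the long transcripts 32 of 37 were higher in MEKi/L (median 1.43, 19 without GSK3i/L replicate 2), while 28 of 40 short respiratory chain transcripts (median −1.04) and 20 of 40 cytosolic ribosomal protein genes (median −0.70) were lower and none of either list was higher. Those counts of lower genes were 9 and 2 without GSK3i/L replicate 2, and 14 and 2 without replicate 3. With the score as a covariate 1627 of the 14498 tested genes were higher and 595 lower. The part of the score in each result below was not tested apart from the counts given. The score itself separated the groups, so a call lost with it as covariate may only reflect a less precise estimate. Scaling totals ran from 10550000 to 15760000 reads. Correlations over tested genes were 0.962 to 0.983 within MEKi/L, 0.981 between the GSK3i/L libraries and 0.853 to 0.911 across the groups. All 12 general pluripotency genes had reads in both groups, with Pou5f1 at 1069, 1323 and 1204 RPM in MEKi/L and 1288 and 1104 RPM in GSK3i/L.

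**Figure D1:**
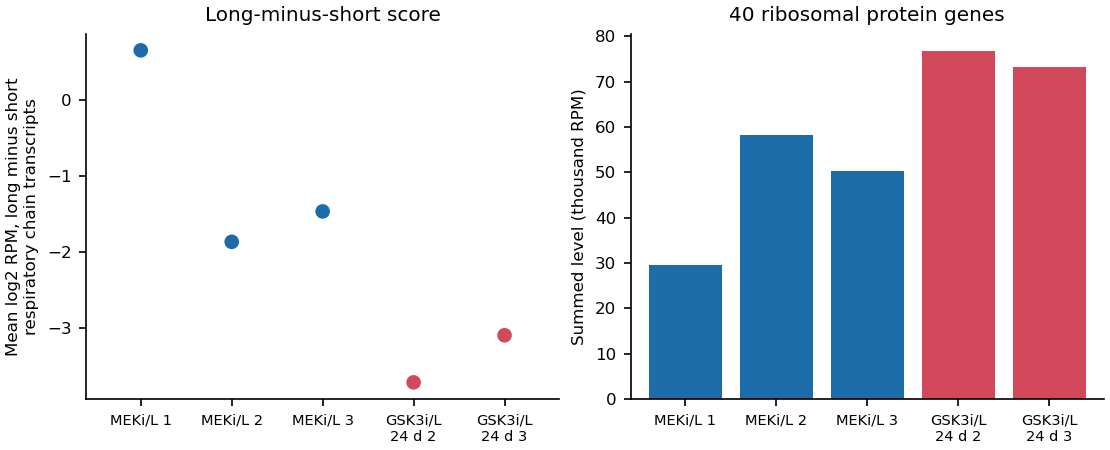
The left panel plots the long-minus-short score (mean log2 RPM) of each of the 5 libraries, and the right panel the summed level of 40 ribosomal protein genes, also by library. MEKi/L replicate 1 has the highest score (0.66) and the lowest ribosomal sum, and both GSK3i/L libraries lie beyond the MEKi/L libraries.

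Sp5, T and Wnt5b were among the 15 largest falls in MEKi/L and Axin2 is the usual readout of beta-catenin, so the promoter letters of these 4 genes are shown. The windows are the 250 bases before the transcription start in RefSeq (GRCm38.p6), 5′ to 3′ on the gene's strand, with the TCF/LEF core ATCAAAG or its reverse complement CTTTGAT in capitals. For Sp5, chr2:70474673-70474922, plus strand; for Axin2, chr11:108920099-108920348, plus strand; for T, chr17:8434173-8434422, plus strand; for the innermost of 3 Wnt5b starts, chosen because it held a match, chr6:119449387-119449636, minus strand.
Sp5: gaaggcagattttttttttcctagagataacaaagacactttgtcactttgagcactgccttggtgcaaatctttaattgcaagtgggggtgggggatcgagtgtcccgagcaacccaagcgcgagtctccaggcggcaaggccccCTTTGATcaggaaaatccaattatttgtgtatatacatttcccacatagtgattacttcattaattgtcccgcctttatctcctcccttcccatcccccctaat
Axin2: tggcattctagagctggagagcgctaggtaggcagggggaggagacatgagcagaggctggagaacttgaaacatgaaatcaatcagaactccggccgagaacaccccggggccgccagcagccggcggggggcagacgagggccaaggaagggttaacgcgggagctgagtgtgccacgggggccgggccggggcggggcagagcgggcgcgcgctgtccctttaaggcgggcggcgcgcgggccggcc
T: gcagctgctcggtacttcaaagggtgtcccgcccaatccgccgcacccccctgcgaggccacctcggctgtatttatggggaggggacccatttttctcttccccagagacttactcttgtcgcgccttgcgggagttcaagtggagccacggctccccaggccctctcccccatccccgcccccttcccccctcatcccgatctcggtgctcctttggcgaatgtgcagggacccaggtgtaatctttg
Wnt5b: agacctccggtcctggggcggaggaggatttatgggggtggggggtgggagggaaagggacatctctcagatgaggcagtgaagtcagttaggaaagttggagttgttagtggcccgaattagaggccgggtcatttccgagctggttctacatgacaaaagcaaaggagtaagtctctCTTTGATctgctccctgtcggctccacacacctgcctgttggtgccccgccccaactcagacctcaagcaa
The core stood 104 bases before the start of Sp5 and 71 bases before that start of Wnt5b, and these letters were not in the windows of Axin2, T or the other 2 Wnt5b starts. Over all 32851 windows of that length 3.21% held the core. Among tested genes with a window, 268 held the core, of which 34.3% were higher and 16.4% lower, beside 34.9% and 14.2% of all 9858 tested genes with a window. The ETS core CCGGAAG (or CTTCCGG), bound by factors at the end of the ERK pathway, was in 6.91% of windows. Of the 9858 tested genes with a window 1480 held it, and of these 28.9% were higher and 17.3% lower. It was in none of the 15 MEK-ERK genes with a window. The other tested MEK-ERK genes, Spry4, Dusp4, Etv4, Egr1, Ccnd1 and Myc among them, had no window and were not searched. Of the 13 Wnt targets and feedback genes with a window, Rnf43 and Tcf7 held the ETS core. The TCF/LEF core was in 2 of those 13, Sp5 and Tnfrsf19, and Tnfrsf19 did not pass (0.14). A match is a description of letters, not a site or a cause.

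Of 19 tested Wnt/beta-catenin targets and feedback genes (24 listed), 7 were lower in MEKi/L, 4 were higher and 8 did not pass, with a median of −0.63 against 0.30 over all tested genes. Sp5 (chromosome 2, 70474923 to 70477729), a zinc finger factor that beta-catenin induces directly, was at 0.381, 0 and 0.0948 RPM in MEKi/L and at 11.4 and 7.31 RPM in GSK3i/L. The groups did not overlap, and 1 MEKi/L library had no read. The difference was −6.10 ± 0.61 (log2 ± SE, adjusted p = 3.1e-05). T (chromosome 17, 8434423 to 8442496), the primitive streak factor Brachyury, was at 0.127, 0.288 and 0.284 RPM against 13.6 and 10.2 RPM, a difference of −5.75 ± 0.49. Axin2 (chromosome 11, 108920349 to 108950783), a scaffold of the beta-catenin destruction complex and its usual feedback readout, was at 6.28, 3.60 and 4.74 RPM against 22.2 and 25.5 RPM, a difference of −2.33 ± 0.25. It was thus detected in every MEKi/L library, at levels below both GSK3i/L libraries. Its antisense neighbour Gm11670 was at 0.0979 RPM in MEKi/L and 0.952 RPM in GSK3i/L on average. Cdx1, a caudal homeobox factor, had 1 read over the MEKi/L libraries and 100 reads over the GSK3i/L libraries, a pooled ratio of 164 with a 95% counting interval of 28.8 to 6541. Rnf43, a ubiquitin ligase that removes Wnt receptors, had 1 read against 43, a ratio of 70.5 with an interval of 12.0 to 2849. Intervals cover counting error only. Sp8 (−3.24 ± 0.61) and Ascl2 (−1.33 ± 0.43) also passed, and the call of Ascl2 was lost without GSK3i/L replicate 3 or MEKi/L replicate 2, and that of Sp8 with the score as covariate.

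The members that were higher are not all activators. Tcf7l1, the repressor at TCF/LEF sites that beta-catenin displaces, was at 232, 137 and 136 RPM in MEKi/L and 11.0 and 13.0 RPM in GSK3i/L, a difference of 3.77 ± 0.24 (adjusted p = 1.5e-06). Notum, a secreted enzyme that inactivates Wnt ligands, was at 53.3, 29.9 and 44.2 RPM against 8.28 and 9.34 RPM (2.23 ± 0.28). Apcdd1, a membrane inhibitor of Wnt signalling, was at 9.58, 10.0 and 8.72 RPM against 2.43 and 1.76 RPM (2.19 ± 0.23). Tcf7 was higher by 0.90 ± 0.24, a call lost without GSK3i/L replicate 2 and with the score as covariate. Nkd1 did not pass (adjusted p = 0.21), and neither did Bambi (−0.04), Tnfrsf19 (0.14), Nkd2 (0.34), Lef1 (−0.94), Ccnd2 (−0.63), Znrf3 (0.56) and Dkk1 (1.21). Lef1 did pass as lower after centring, quantile normalization or trimmed mean scaling, with the score as covariate and without MEKi/L replicate 1. Its difference ran from −2.29 to −0.64 over the alternatives. Znrf3 passed as higher without MEKi/L replicate 2. Centring lowers every difference by the same amount, so the list's median could only fall with it (−0.90, with 8 members lower and 4 higher). With the score as covariate the median was −0.81, with 7 members lower and 3 higher.

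**Figure D2:**
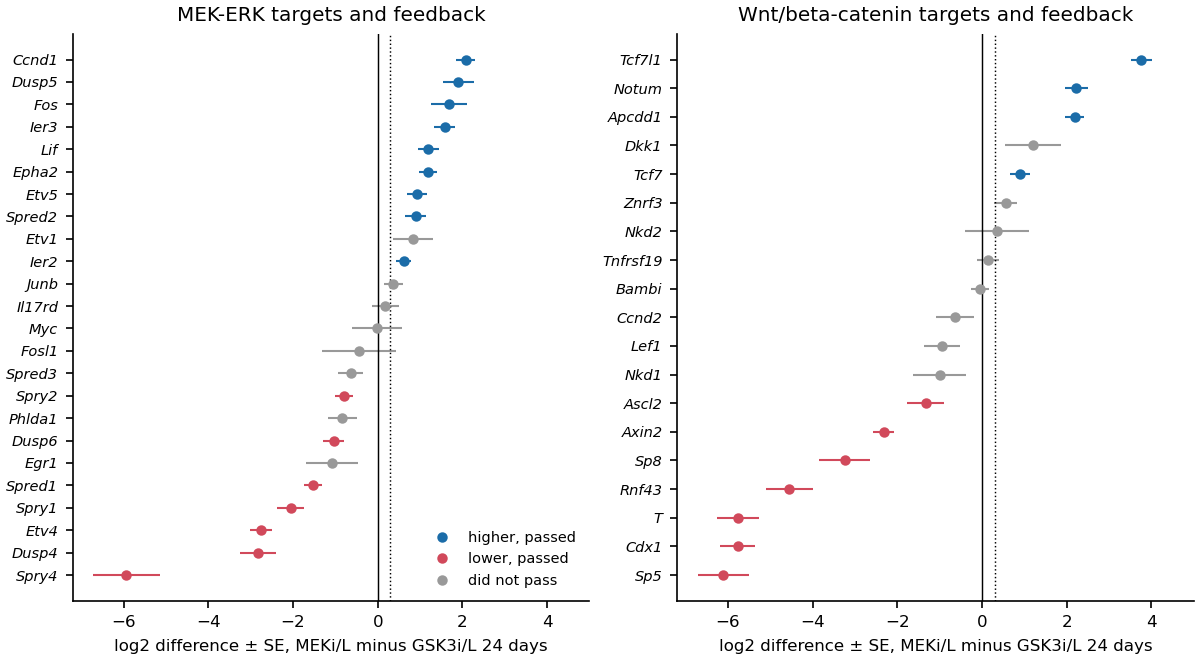
Each point is the log2 difference of a tested gene, MEKi/L at 8 days minus GSK3i/L at 24 days, with its standard error; blue and red mark genes that passed at an adjusted p under 0.05, grey those that did not, and the dotted line is the median of all tested genes, 0.30. Both lists have members far on each side, with Spry4 at −5.94 and Sp5 at −6.10 the lowest and Ccnd1 at 2.07 and Tcf7l1 at 3.77 the highest.

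Among Wnt ligands, receptors and secreted antagonists 12 of 25 tested genes were higher and 5 lower, with a median of 1.10 (7 higher and 5 lower with the score as covariate). Wnt5b was at 0.127, 0 and 0.190 RPM in MEKi/L and 5.54 and 5.28 RPM in GSK3i/L (−5.54 ± 0.51), while its paralog Wnt5a was at 6.66, 3.74 and 5.40 RPM against 0 and 0.176 RPM. Wnt5a had 214 reads against 2, a pooled ratio of 65.2 with a counting interval of 17.9 to 542. These paralogs, both ligands of the noncanonical type, stood in opposite directions. Wnt5b shares its locus with Fbxl14 on the other strand, at 38.0 RPM in MEKi/L and 28.3 RPM in GSK3i/L on average. Wnt7b had 174 reads against 1, a ratio of 106 with an interval of 18.8 to 4215. Porcn, the acyltransferase that Wnt ligands need for secretion, was at 0.508, 0 and 0.190 RPM against 5.24 and 5.72 RPM (−4.90 ± 0.73). Of 13 TCF/LEF factors and parts of the destruction complex, 6 were higher and 1 lower: Ctnnb1, which encodes beta-catenin, was at 1103, 823 and 769 RPM against 343 and 359 RPM (1.34 ± 0.20), Gsk3b was higher by 1.57 ± 0.24, Apc by 1.58 ± 0.31 and Tcf7l2 by 1.67 ± 0.28, and Dvl1 was lower (−1.05 ± 0.19). Apc and Tcf7l2 did not pass with the score as covariate, where 2 of the 13 genes were higher and 1 lower. Ctnnb1 overlaps Ulk4 on the other strand, at 78.3 RPM in MEKi/L and 38.2 RPM in GSK3i/L on average.

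The MEK-ERK genes did not move as 1 block. Of 24 tested, 7 were lower in MEKi/L, 9 were higher and 8 did not pass, with a median of 0.08 as deposited. Over all tested genes 14.4% were lower and 33.5% higher. After centring 9 of the 24 were lower and 8 higher (median −0.20). With the score as covariate 8 were lower and 2 higher (median −0.61). Without GSK3i/L replicate 2, 6 were lower and 5 higher. Spry4, a Sprouty inhibitor of ERK signalling, was at 1.21, 0.576 and 0.190 RPM in MEKi/L and at 34.2 and 28.4 RPM in GSK3i/L, a difference of −5.94 ± 0.79 (adjusted p = 0.00020). Dusp4, a phosphatase that inactivates ERK in the nucleus, was at 2.35, 2.45 and 1.71 RPM against 12.5 and 18.5 RPM (−2.83 ± 0.43). Etv4, an ETS factor induced by FGF, was at 12.7, 8.92 and 7.01 RPM against 59.9 and 65.3 RPM (−2.76 ± 0.27). Each of these 3 genes was lower in every MEKi/L library than in either GSK3i/L library. Spry1 (−2.06 ± 0.33), Spred1 (−1.53 ± 0.21), Dusp6 (−1.04 ± 0.25) and Spry2 (−0.81 ± 0.21) were lower as well, and the last pair did not pass without GSK3i/L replicate 2.

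Other genes that ERK can induce were higher in MEKi/L than in GSK3i/L at 24 days. They were 9 of 24 tested, near the 33.5% of all tested genes that were higher. Ccnd1, cyclin D1, was at 213, 132 and 144 RPM in MEKi/L and 32.8 and 43.6 RPM in GSK3i/L (2.07 ± 0.22, adjusted p = 5e-05). Dusp5 (1.90 ± 0.37), Fos (1.69 ± 0.42), Ier3 (1.58 ± 0.25), Lif (1.20 ± 0.25), Epha2 (1.18 ± 0.21), Etv5 (0.93 ± 0.23), Spred2 (0.90 ± 0.25) and Ier2 (0.61 ± 0.18) were higher too. Fos, Etv5, Spred2 and Ier2 did not pass without GSK3i/L replicate 2, Ier2 also without GSK3i/L replicate 3 and after centring, and Ccnd1 and Ier3 alone of these 9 passed with the score as covariate. The ETS paralogs Etv4 and Etv5 thus stood on opposite sides, as did Spred1 and Spred2. Egr1 was low in both groups, at 1.01, 0.360 and 0.379 RPM and at 1.14 and 1.06 RPM, and did not pass (−1.08 ± 0.62, adjusted p = 0.17). Myc (−0.02 ± 0.59), Phlda1 (−0.84 ± 0.35), Spred3 (−0.64 ± 0.29), Fosl1 (−0.44 ± 0.87), Il17rd (0.18 ± 0.32), Junb (0.37 ± 0.22) and Etv1 (0.83 ± 0.48) did not pass. Phlda1 and Spred3 did pass as lower after centring, quantile normalization or trimmed mean scaling. Egr1 passed as lower after quantile normalization and in a fit with the replicate number as a block, and Il17rd with the score as covariate.

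The 15 largest rises among genes with established symbols, leaving out clone names, predicted genes and pseudogenes, were led by genes nearly silent in GSK3i/L at 24 days. Calcoco2 (chromosome 11, 96099326 to 96111964), an autophagy receptor, was at 219, 152 and 156 RPM in MEKi/L and 1.14 and 0.616 RPM in GSK3i/L (7.69 ± 0.28, adjusted p = 5e-08). Ddr2, a collagen receptor kinase, was at 54.7, 30.7 and 50.2 RPM against 0.380 and 0 RPM (7.98 ± 0.52). A2m, a protease inhibitor of the alpha-2-macroglobulin family, was at 216, 125 and 147 RPM against 2.43 and 2.38 RPM (6.04 ± 0.29). All MEKi/L libraries lay above both GSK3i/L libraries for these genes, which the choice of the 15 required. Lrtm2, Lrrc15, Hhip (an inhibitor of hedgehog ligands), Sh3rf2 and Ctnna2 (the neuronal alpha-catenin) had no read in either GSK3i/L library. Against a floor of 3 reads per library they were at least 63-fold, 59-fold, 38-fold, 33-fold and 23-fold higher. Bhmt, which remakes methionine from homocysteine with betaine, had 492 reads against 1, a pooled ratio of 300.1 with a counting interval of 53.6 to 11875. Lmx1b had 270 reads against 1, Agpat9 237 against 2 and Slc5a1, a sodium-glucose transporter, 306 against 3. Prmt8 (6.67 ± 0.31), Chst3 (6.64 ± 0.32) and Atp2b2 (6.14 ± 0.52) complete the 15.

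The 15 largest falls chosen in the same way included 3 genes without a read in MEKi/L. S100g, which encodes the calcium-binding protein calbindin-D9k, was at 26.1 and 10.7 RPM in GSK3i/L and at least 80-fold lower in MEKi/L against the 3-read floor. Nkx1-2, a homeobox gene of the posterior epiblast, was at 8.05 and 8.01 RPM and Nt5e, the surface enzyme CD73, at 11.2 and 4.58 RPM, each at least 34-fold lower in MEKi/L. Ntn1, the guidance ligand netrin-1, was at 3.11, 0.864 and 3.89 RPM in MEKi/L against 106 and 125 RPM (−5.72 ± 0.48). Ptgs1, the cyclooxygenase COX-1, had 3 reads against 213, a ratio of 116 with an interval of 39.3 to 569. Nhedc2 (−6.16 ± 0.67), Pglyrp1 (−5.14 ± 0.34) and Bdh2 (−4.85 ± 0.40) were lower too, without overlap of the libraries, which the choice of the 15 required. Nhedc2 and Bdh2 are neighbours on chromosome 3, from 135307700 to 135342767 and from 135281221 to 135304426. Ctsh, the protease cathepsin H, was at 49.5 RPM in GSK3i/L replicate 2 and 5.46 RPM in replicate 3, and at 0.317, 1.08 and 0 RPM in MEKi/L (−5.74 ± 1.11, adjusted p = 0.0019). Pitx1, a homeobox gene, was at 7.22 and 3.26 RPM against 0.254, 0 and 0.190 RPM. The Ctsh call was lost with the score as covariate, and the others of the 30 genes kept their direction and side of the threshold in every alternative that tested them. The 30 were chosen from these same data as the largest differences that passed, so this stability is no separate support.

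**Figure D3:**
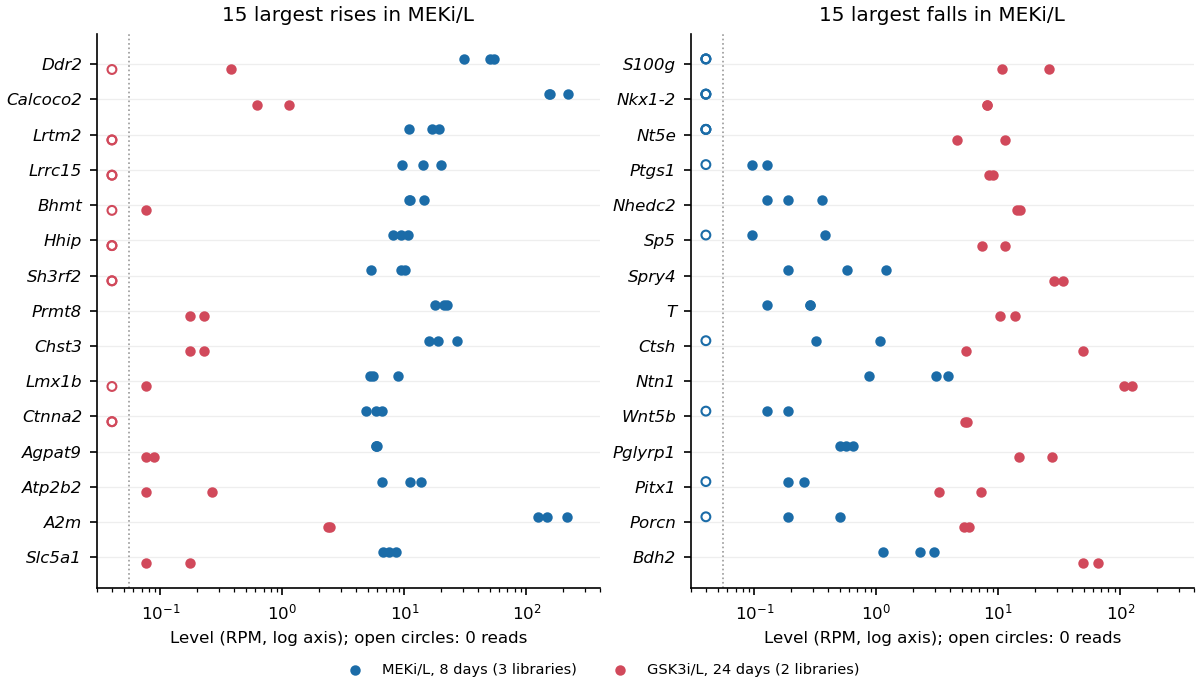
Each row is a gene and each point a library, on a log axis of RPM; open circles left of the dotted line are libraries with 0 reads. The groups do not overlap for any of the 30 genes, which the choice of genes required, and Ctsh has the widest gap between its GSK3i/L libraries, 49.5 against 5.46 RPM.

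Of 17 naive pluripotency genes 10 were higher in MEKi/L, 1 was lower and 6 did not pass, with a median of 0.74 (8 higher and 1 lower after centring, median 0.46; 4 higher and 1 lower with the score as covariate; 5 higher and 1 lower without GSK3i/L replicate 2). Prdm14, a repressor of de novo methylation and of FGF receptor genes, was at 64.5, 35.8 and 39.0 RPM against 9.12 and 11.2 RPM (2.15 ± 0.25). Dppa3 (1.91 ± 0.30), Tbx3 (1.46 ± 0.24), Nr5a2 (1.36 ± 0.24), Pecam1 (1.16 ± 0.25), Tfcp2l1 (1.11 ± 0.27), Fgf4 (0.99 ± 0.23), Klf5 (0.74 ± 0.22) and Tcl1 (0.71 ± 0.22) passed. Nanog was at 718, 876 and 827 RPM against 476 and 388 RPM (0.90 ± 0.19, adjusted p = 0.0033). Gbx2, a homeobox target of LIF-STAT3, was the exception, at 2.29, 1.22 and 1.61 RPM against 16.9 and 18.1 RPM (−3.40 ± 0.29). An overlapping transcript on its other strand, D130058E05Rik, was at 0.62 RPM in MEKi/L and 6.52 RPM in GSK3i/L on average. Pecam1, Tfcp2l1, Fgf4, Klf5 and Tcl1 did not pass without GSK3i/L replicate 2, and Klf5 and Tcl1 neither without GSK3i/L replicate 3 nor after centring. Prdm14, Dppa3, Tbx3 and Nanog were the 4 higher genes with the score as covariate. Esrrb (0.64 ± 0.27), Klf2 (0.40 ± 0.25), Nr0b1 (0.34 ± 0.25), Klf4 (0.24 ± 0.21), Sox15 (0.09 ± 0.24) and Zfp42 (−0.08 ± 0.23) did not pass, and the Esrrb levels of the groups overlapped (662, 376 and 447 RPM against 248 and 385 RPM).

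Of 12 general pluripotency genes 5 were higher and 2 lower, against 3 and 2 after centring, 4 and 0 without GSK3i/L replicate 2 and 3 and 1 without GSK3i/L replicate 3. Sall4, a zinc finger factor, was at 416, 225 and 270 RPM against 65.6 and 71.5 RPM (2.10 ± 0.24), and Sox2 was at 752, 566 and 548 RPM against 265 and 275 RPM (1.19 ± 0.20). Pou5f1, which encodes OCT4, differed by 0.00 ± 0.20 (adjusted p = 0.99). Rex2 (1.18 ± 0.34), Zfp281 (0.86 ± 0.20) and Gdf3 (0.57 ± 0.18) were higher, and Rex2 and Gdf3 did not pass after centring or without GSK3i/L replicate 3, nor Gdf3 without GSK3i/L replicate 2. Sall4, Sox2 and Gdf3 were the 3 higher genes with the score as covariate. Dppa5a was at 624, 1971 and 1760 RPM against 3086 and 2958 RPM (−1.22 ± 0.39), with MEKi/L replicate 1 apart, and its call was lost without either GSK3i/L library. Dppa4 was lower (−0.59 ± 0.18), a call lost without GSK3i/L replicate 2. Utf1 (0.67), Dppa2 (0.06), Lin28a (0.04) and Tdgf1 (−0.35) did not pass. Pou5f1, Nanog and Dppa5a have near-identical copies in the genome, and no source used here says how shared reads were counted.

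The formative and primed list, genes of the epiblast after implantation, had 11 of 18 members higher and 1 lower (median 1.25; 10 and 1 after centring; 6 and 0 with the score as covariate). Otx2, a homeobox factor that marks the exit from the naive state, was at 140, 127 and 123 RPM in MEKi/L and 10.9 and 7.04 RPM in GSK3i/L (3.89 ± 0.25, adjusted p = 1.3e-06). The Nodal antagonists Lefty2 and Lefty1 were at 502, 240 and 223 RPM against 17.0 and 13.9 RPM (4.28 ± 0.31), and at 97.1, 56.3 and 48.0 RPM against 4.59 RPM on average (3.80 ± 0.30). Every MEKi/L library lay far above both GSK3i/L libraries for these 3 genes. Fgf5 was barely detected, with 30 reads against 1, a ratio of 18.3 with an interval of 3.04 to 746, and did not pass with the score as covariate or after quantile normalization. Car4, the 1 lower member, was at 20.3 RPM in GSK3i/L replicate 2 and 2.55 RPM in replicate 3, against 0.761, 0.648 and 0.379 RPM, and its call was lost without replicate 2 and with the score as covariate.

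Receptors and inhibitors of neighbouring pathways also differed. Of 14 LIF-STAT3 genes 8 were higher and none was lower (median 0.73; 6 higher and 1 lower after centring; 3 and 1 without GSK3i/L replicate 2; 3 and 0 with the score as covariate), among them the receptor chains Lifr (132, 76.0 and 96.5 RPM against 30.2 and 38.8 RPM, 1.53 ± 0.23) and Il6st (1.43 ± 0.19), and the ligand Osm (1.54 ± 0.20). Of 17 BMP-SMAD and ID genes 8 were higher and 5 lower (7 and 3 without GSK3i/L replicate 2; 3 and 4 with the score as covariate). Bmp4, the ligand, was at 3.94, 1.87 and 1.90 RPM against 24.0 and 18.5 RPM (−3.13 ± 0.49), with the overlapping Gm15217 at 0.0739 and 1.35 RPM on average in the 2 groups. Id1, a target of BMP signalling, was at 1.46, 0.360 and 0.569 RPM against 7.44 and 6.08 RPM (−3.33 ± 0.51), and Id3 was lower too (−2.54 ± 0.74), a call lost without GSK3i/L replicate 2. Id2, of the same family, was higher at 8.57, 15.8 and 13.0 RPM against 3.34 and 2.38 RPM (2.10 ± 0.32). Of 13 FGF ligands and receptors 6 were higher and 1 lower (2 and 0 with the score as covariate, where Fgf15 did not pass), and Fgf10 (2.40 ± 0.27) and Fgf15 (2.69 ± 0.48) were among the higher ones. The value of Fgfr2 (1.67 ± 0.24) is uncertain, because its deposited span on chromosome 7, from 130162451 to 133123350, takes in other genes, Nkx1-2 among them.

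Lineage markers gave a mixed picture, and in bulk RNA fewer cells of a type and less RNA per cell cannot be told apart. Of 10 tested primitive streak and mesoderm genes (20 listed; Foxf1a and Msgn1 had no read in any of the 5 libraries) 4 were higher and 4 lower (2 lower without either GSK3i/L library). Beside T and Nkx1-2, which were lower, Gsc, an organizer homeobox gene, was at 6.98, 10.8 and 6.92 RPM in MEKi/L and 0.608 and 0.616 RPM in GSK3i/L (3.72 ± 0.27), and Kdr, a VEGF receptor, had 129 reads against 2, a ratio of 39.3 with an interval of 10.7 to 328. Of 9 tested neural genes 7 were higher and 1 lower (median 2.03; 5 and 0 with the score as covariate). Nes, an intermediate filament of neural progenitors, was at 88.8, 35.3 and 46.6 RPM against 2.35 and 5.20 RPM (3.91 ± 0.38), and Dpysl3 (3.75 ± 0.33), Ncam1 (3.13 ± 0.29) and Tubb3 (3.04 ± 0.33) were higher. The neuronal genes Neurog2 and Dcx had no read in any of the 5 libraries, and Stmn2 was lower (−0.72 ± 0.19), a call lost without GSK3i/L replicate 2 and with the score as covariate. Of 6 tested eye and forebrain homeobox genes (13 listed) 5 were higher and none was lower (3 with the score as covariate): Hesx1 was at 28.4, 22.9 and 25.4 RPM against 1.14 and 1.67 RPM (4.21 ± 0.25), Vax2 at 20.5, 21.1 and 17.0 RPM against 2.13 and 2.38 RPM (3.11 ± 0.26), and Rax had 59 reads against 1, a ratio of 36.0 with an interval of 6.21 to 1445, and did not pass with the score as covariate. Emx2, Six6 and Vax1 had no read in any of the 5 libraries. The summed level of that list was 50.1 to 62.5 RPM in MEKi/L and 4.03 to 4.67 RPM in GSK3i/L.

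Primitive endoderm, the extraembryonic layer beside the epiblast, split by kind of gene: 5 of 13 tested markers were lower in MEKi/L and 5 higher, with a median of −0.77. The lower ones were the transcription factors Sox17, Gata6 and Foxq1, the receptor Pdgfra and the adaptor Dab2, and they were uneven between the GSK3i/L libraries: 1 of the 5 stayed lower without GSK3i/L replicate 2. Sox17 was at 7.67 RPM in GSK3i/L replicate 2 and 2.20 RPM in replicate 3, and at 0.190, 0.288 and 0.379 RPM in MEKi/L (−3.90 ± 0.70, adjusted p = 0.0013). Gata6 was at 3.19 and 1.06 RPM against 0.444, 0.648 and 0.190 RPM (−2.28 ± 0.74), Foxq1 was lower by the fit (−3.22 ± 0.99), and both calls were lost without replicate 2, that of Gata6 also without MEKi/L replicate 3. Dab2 was at 24.4 and 5.11 RPM against 2.41, 2.52 and 2.75 RPM, and Foxa2, below the level for testing, at 2.28 and 0.264 RPM against 0, 0.144 and 0 RPM (Dab2, Foxa2, Pdgfra and the matrix genes other than Col4a1 were named after their values were seen). Replicate 2 was the higher GSK3i/L library for Sox17, Gata6, Foxq1, Dab2 and Foxa2, as it was for Ctsh, S100g and Car4. It was also the higher one for genes of other kinds such as Nt5e, Pglyrp1 and Sp5, while Ptgs1, Ntn1 and Porcn were higher in replicate 3. Whether replicate 2 held primitive endoderm cells was not tested. The higher members were the matrix genes Col4a1, Col4a2, Lama1, Lamb1 and Sparc: Col4a1 was at 196, 92.1 and 88.9 RPM against 25.8 and 15.9 RPM (2.53 ± 0.32), and the summed level of all 15 listed markers was 647 to 1016 RPM in MEKi/L against 332 and 244 RPM, so that the sum stood opposite to the transcription factors. Gata4 overlapped between the groups (3.43, 2.52 and 1.42 RPM against 6.76 and 2.29 RPM). With the score as covariate 2 of the 13 genes were higher and none lower. Of 12 trophoblast markers 4 were lower (2 without GSK3i/L replicate 3) and 3 higher: Plac8 was at 1.14, 2.81 and 1.61 RPM against 39.6 and 45.9 RPM (−4.62 ± 0.55), Gata2 was lower (−2.79 ± 0.61, lost without GSK3i/L replicate 3), and Gata3, without a read in GSK3i/L, was at least 5-fold higher. Of 12 fibroblast and mesenchymal markers 7 were higher and none lower (1 higher with the score as covariate), while Dcn, Lum, Postn, Prrx1 and Tnc had no read in any of the 5 libraries.

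**Figure D4:**
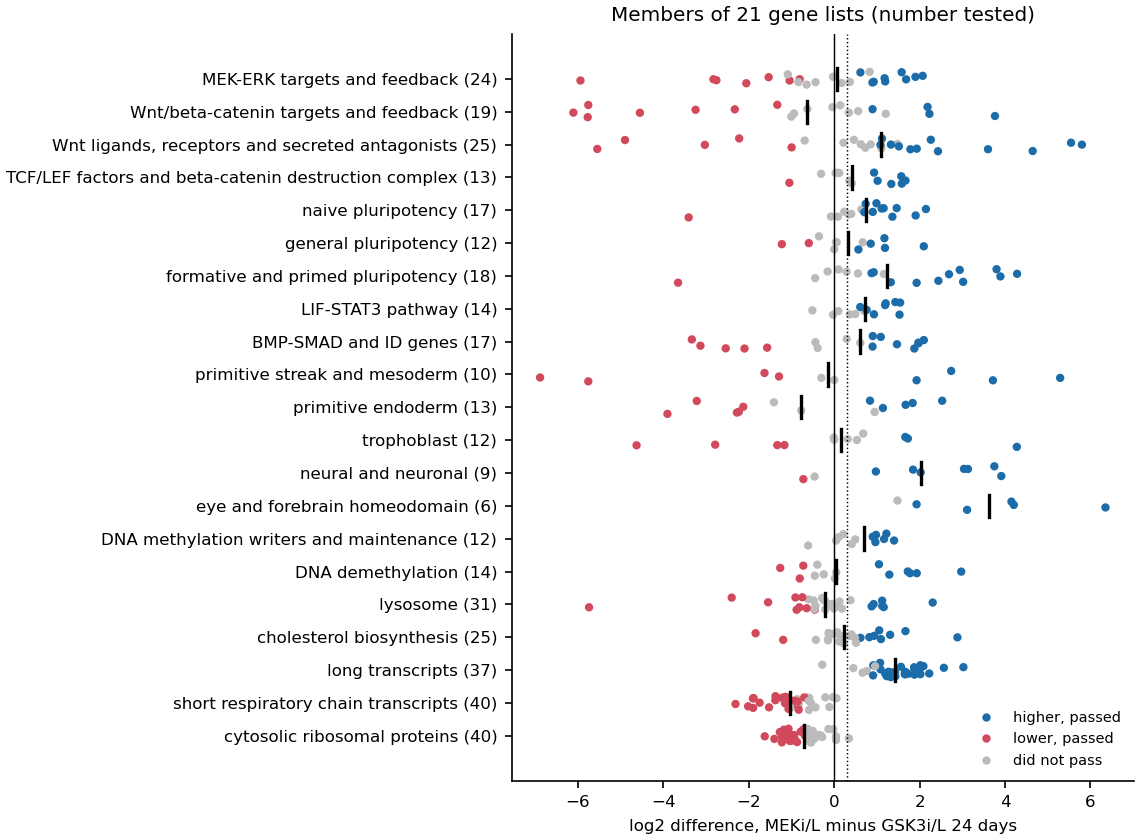
Each point is a tested member of 1 of 21 lists, placed by its log2 difference (MEKi/L minus GSK3i/L at 24 days); blue and red mark genes that passed, grey those that did not, black bars are list medians and the dotted line is the median of all tested genes, 0.30. Eye and forebrain genes have the highest median, 3.63, and short respiratory chain transcripts the lowest, −1.04.

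The enzymes of DNA methylation were measured as RNA only. Of 12 writers and maintenance factors 6 were higher in MEKi/L and none lower (median 0.70; 4 higher and 1 lower after centring; 2 higher with the score as covariate; 3 without GSK3i/L replicate 2). Dnmt3a, a de novo methyltransferase, was at 62.5, 36.5 and 37.0 RPM against 15.0 and 23.6 RPM (1.22 ± 0.30, adjusted p = 0.0063), a call lost without GSK3i/L replicate 2. Dnmt3b overlapped between the groups, at 131, 58.7 and 77.0 RPM against 69.7 and 87.4 RPM (0.11 ± 0.32), and Dnmt3l did not pass (0.22 ± 0.42) and lies across the gene Aire on the other strand. Dnmt1, the maintenance enzyme, was at 444, 208 and 239 RPM against 116 and 177 RPM (0.97 ± 0.30), and its partner Uhrf1 was higher by 0.90 ± 0.28. Both calls were lost after centring and without GSK3i/L replicate 2. Usp7, a deubiquitinase that stabilises them, was at 671, 376 and 452 RPM against 169 and 199 RPM (adjusted p = 0.00089). Mat2a (1.17 ± 0.25), which makes the methyl donor, and Hells (0.98 ± 0.20) passed, with the score as covariate only Usp7 and Mat2a of the list did, and Ahcy (0.41), Lig1 (0.49), Uhrf2 (0.05) and Pcna (−0.61) did not.

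Of 14 demethylation genes 6 were higher and 3 lower (median 0.03, −0.24 after centring). Tet1, an enzyme that oxidises 5-methylcytosine, was at 611, 222 and 278 RPM in MEKi/L and 72.9 and 106 RPM in GSK3i/L (1.93 ± 0.35), Tet2 at 128, 66.8 and 129 RPM against 28.3 and 32.0 RPM (1.78 ± 0.27), and Tet3 at 11.5, 8.06 and 6.25 RPM against 2.58 and 2.47 RPM (1.72 ± 0.31). Apobec2 (2.98 ± 0.36), Gadd45b (1.29 ± 0.27) and Apex1 (1.05 ± 0.21) were higher. With the score as covariate Tet2, Apobec2 and Gadd45b passed, and Tet1, Tet3 and Apex1 did not. Gadd45g (−1.26 ± 0.47), Neil2 (−0.81 ± 0.27) and Neil1 (−0.72 ± 0.25) were lower, and all 3 of these calls were lost without either GSK3i/L library or without MEKi/L replicate 3. Neil2 also did not pass without MEKi/L replicate 1. Smug1 (−0.45), Gadd45a (−0.39), Neil3 (−0.24), Mbd4 (0.05) and Tdg (0.02) did not pass. Of 15 one-carbon genes 9 were higher and 1 lower, with Bhmt2 (1.81 ± 0.24) and Mtr (1.69 ± 0.24) higher beside Bhmt, and Gnmt, which uses up the methyl donor, lower at 0.508, 1.15 and 0.853 RPM against 5.54 and 4.75 RPM (−2.69 ± 0.52), a call lost with the score as covariate.

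Of 13 SRF contractile targets 8 were higher in MEKi/L and none lower (4 higher with the score as covariate), among them Ctgf (27.5, 24.9 and 24.4 RPM against 6.46 and 4.05 RPM, 2.32 ± 0.23) and Cnn2 (1.77 ± 0.17), an actin-binding calponin. Of 18 integrins and laminins 10 were higher and none lower (3 with the score as covariate). Itgb3, the integrin beta-3 chain, was at 10.9, 7.63 and 5.97 RPM against 0.532 and 0.176 RPM (4.69 ± 0.44), and its partner chain Itgav was at 68.6, 32.8 and 38.9 RPM against 9.42 and 8.54 RPM (2.31 ± 0.27). Both chains were thus higher in every MEKi/L library. Epithelial junction genes went both ways, with 7 of 18 higher and 5 lower: the desmosomal Dsp was higher (2.72 ± 0.42), while the tight junction claudin Cldn7 (−2.62 ± 0.37) and the polarity gene Crb3 (−2.61 ± 0.22) were lower.

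Cell cycle and metabolic lists held single genes with large differences. Of 21 G1 cyclins and CDK inhibitors 6 were higher and 3 lower (4 and 1 with the score as covariate). As deposited these counts stood near the 33.5% and 14.4% of all tested genes. Cdk6, a partner of cyclin D, was at 1.90, 1.58 and 2.65 RPM in MEKi/L and 21.7 and 25.7 RPM in GSK3i/L (−3.56 ± 0.26, adjusted p = 3e-06), opposite in direction to Ccnd1, and the inhibitor Cdkn2b was higher (1.61 ± 0.28). Of 26 glycolysis and hypoxia genes 14 were higher and 1 lower (9 and 1 after centring; 4 and 1 with the score as covariate): the glucose transporter Slc2a1 was at 331, 190 and 233 RPM against 55.7 and 52.6 RPM (2.18 ± 0.26), and Pdk1, which restrains entry of pyruvate into mitochondria, was at 65.2, 45.2 and 42.7 RPM against 194 and 148 RPM (−1.75 ± 0.24). Of 25 cholesterol genes 8 were higher (4 with the score as covariate), among them the synthase Hmgcs1 (1.31 ± 0.22), and 2 lower, Ebp (−1.84 ± 0.19) and Tm7sf2 (−1.19 ± 0.18). Of 31 lysosomal genes 9 were lower and 6 higher, against 16 and 6 after centring, and 6 and 1 with the score as covariate, with Ctsc (−2.40 ± 0.28) lower and Gpnmb (2.31 ± 0.26) higher. Of 19 p53 targets 12 were higher and 2 lower (6 and 1 without GSK3i/L replicate 2), and Trp53 itself was higher (1.42 ± 0.26). Trp53 is a member of that list and 1 of the 12. The 2 lower genes were Pmaip1 (−1.17) and Cdkn1a (−0.59), and both calls were lost without MEKi/L replicate 3. After centring 8 of the list were higher and 2 lower. With the score as covariate 6 of that list were higher and none lower, and Trp53 did not pass. Of 22 ATF4 genes 4 were higher and 3 lower, against 2 and 1 without GSK3i/L replicate 2 and 0 and 1 with the score as covariate. Of 10 mitochondrially encoded genes mt-Co3 alone was lower (−0.85 ± 0.33), a call lost in 9 alternatives, leaving out either GSK3i/L library among them.

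Chromatin, imprinted, germline and interferon lists were mixed. Of 27 Polycomb genes 11 were higher and 4 lower (7 and 3 with the score as covariate; 9 and 2 without GSK3i/L replicate 2). Over all tested genes the shares were 33.5% and 14.4%. Jarid2, an accessory subunit of PRC2, was at 436, 216 and 281 RPM in MEKi/L and 57.6 and 65.5 RPM in GSK3i/L (2.28 ± 0.26), and Phf19, another accessory subunit, was at 31.4, 31.5 and 23.1 RPM against 4.79 and 7.22 RPM (2.27 ± 0.27). Of 25 imprinted genes 7 were higher and 6 lower (4 and 8 after centring; 2 and 4 with the score as covariate; 4 and 3 without GSK3i/L replicate 3). Dio3, an enzyme that inactivates thyroid hormone, was at 36.6, 64.4 and 65.9 RPM against 1.14 and 0.793 RPM (5.82 ± 0.31, adjusted p = 4.4e-07), and Phlda2 was at 7.81, 10.5 and 4.93 RPM against 48.5 and 44.1 RPM (−2.65 ± 0.29). These 2 imprinted genes had no overlap between the groups. Of 24 germline genes 12 were higher and 3 lower (7 and 0 without GSK3i/L replicate 2; 5 and 0 with the score as covariate), with Dazl, an RNA-binding protein of germ cells, at 31.1, 24.2 and 33.5 RPM against 7.29 and 5.02 RPM (2.28 ± 0.39). Of 13 interferon genes 6 were higher and 2 lower (2 and 2 after centring; 3 and 1 with the score as covariate; 3 and 1 without GSK3i/L replicate 2), and Bst2, tetherin, was at 21.6, 36.8 and 28.5 RPM against 170 and 193 RPM (−2.68 ± 0.24). No gene of the 2-cell-like list reached the level for testing.

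Levels in the other cultures stood beside these differences. In 2i/L at 8 days, on the same scale as the 5 libraries, Axin2 was at 67.0 ± 9.7 RPM (SD, n = 3), Sp5 at 23.2 ± 6.7 RPM, Nkx1-2 at 35.3 ± 2.9 RPM and T at 3.71 ± 1.5 RPM, and Spry4 was at 1.00 ± 0.98 RPM and Etv4 at 21.1, 21.3 and 14.6 RPM in its 3 libraries. Thus the 2i/L levels of Axin2, Sp5 and Nkx1-2 lay above those of MEKi/L and of GSK3i/L at 24 days, and that of Spry4 near MEKi/L. In GSK3i/L at 8 days, whose values the authors had matched to a shared distribution and which are not tested against these libraries, T was at 12.3 ± 3.2 RPM (SD, n = 3), Axin2 at 49.1 ± 11 RPM, Spry4 at 58.7 ± 29 RPM, Calcoco2 at 3.25 ± 0.39 RPM and Otx2 at 11.3 ± 4.0 RPM. The levels of others were low there: S100g was at 0.292 ± 0.51 RPM, Pitx1 at 0.181 ± 0.13 RPM and Ctsh at 1.09 ± 0.67 RPM. The 8-day GSK3i/L means of S100g, Pitx1 and Ctsh thus lay nearer the MEKi/L levels than the 24-day GSK3i/L levels, while those of T, Spry4, Calcoco2 and Otx2 lay nearer the 24-day GSK3i/L levels.

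**Figure D5:**
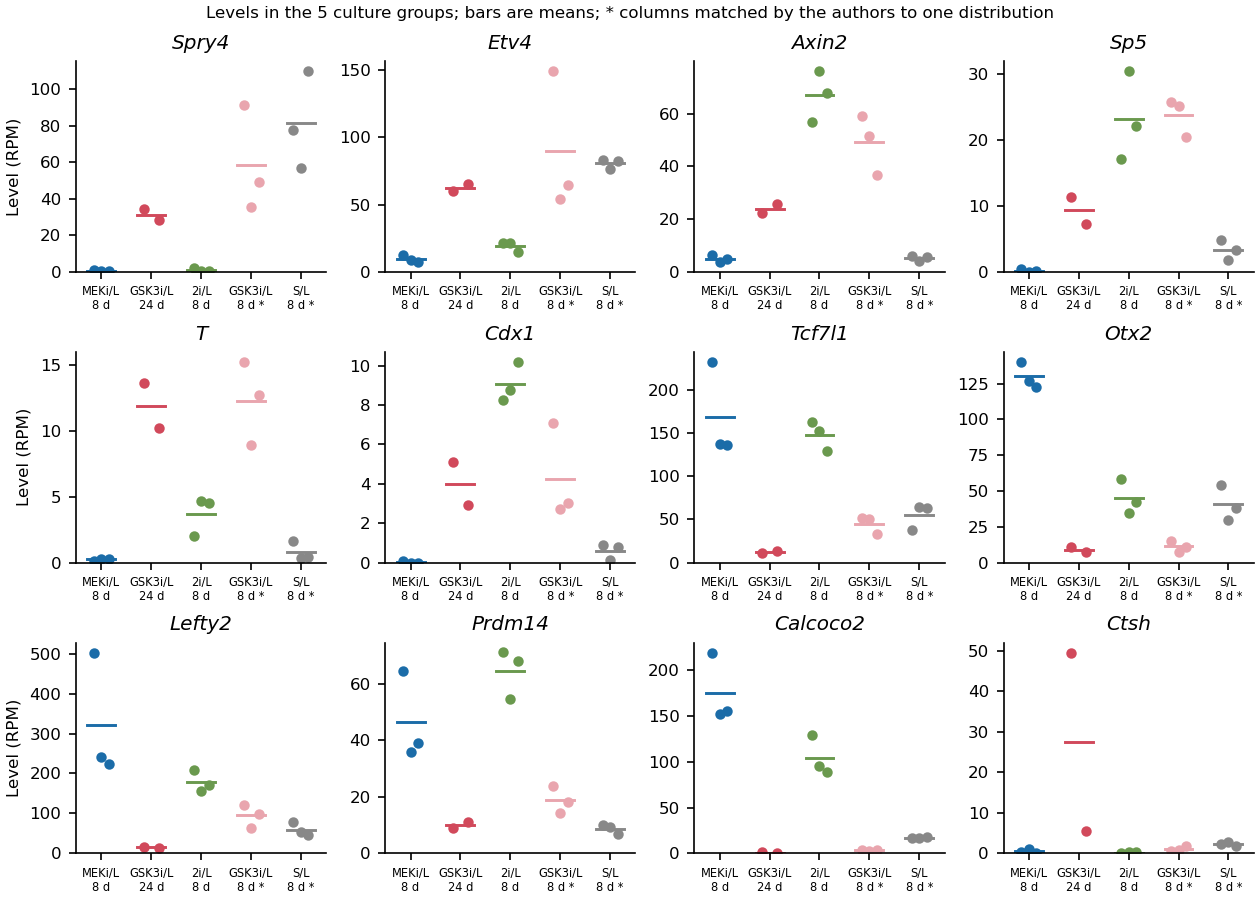
Levels of 12 genes in RPM (linear axes from 0) in the 5 culture groups; points are libraries and bars means, and a star marks columns that the authors matched to a shared distribution. Spry4 and Etv4 are low wherever the MEK inhibitor was present, Axin2 and Sp5 high wherever the GSK3 inhibitor was, and Ctsh is high in 1 library of GSK3i/L at 24 days.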

How the data were processed

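RNA of the E14 cultures was made into directional poly(A) libraries and sequenced as 50-base single reads, per the labels' protocols. The authors deposited log2 RPM (reads scaled to library size) for 25965 genes on GRCm38; HISAT2 and Trim Galore 0.6.5 are named in the submitters' processing notes. No source used here gives the counting strand, the annotation release or the rule for reads shared between copies. A gene with 0 reads stands at 0.9 of a read, and whole reads were recovered for 99.96% to 99.99% of values above 0 (tolerance 0.02 of a read). Genes with at least 0.5 RPM in 2 of the 5 libraries were tested with limma 3.58.1 in R 4.3.3 (intensity trend, robust variances, Benjamini-Hochberg adjustment) on the deposited log2 values of 8 libraries, called at adjusted p under 0.05, after a check on simulated data. Of 801 entries in 37 gene lists, 795 were found and 684 tested. Members, lists and tests were chosen with earlier results of these data known. Named genes were the 15 largest rises and falls among genes that passed, with group values that do not overlap and a mean of at least 5 RPM in the higher group, leaving out predicted genes, clone names (such as symbols ending in Rik), accession-like names and pseudogenes; all members of the MEK-ERK, Wnt target, methylation, demethylation, naive and general lists; and the 4 largest called members of other lists with the 2 largest in the minority direction. Lists of long, respiratory chain and ribosomal transcripts are given by counts. Bounds use a floor of 3 reads per library (a mean of 0.23 RPM in MEKi/L and of 0.25 RPM in GSK3i/L), and intervals on ratios are exact at 95%. Alternatives covered scaling, filters, pseudocounts, the samples in the fit, the test, covariates and left-out libraries. Bisulfite samples were not analysed here.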

Additional observations from a re-analysis of the deposited data

How the results depend on the processing

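Counts moved most with scaling, with the GSK3i/L libraries and with the long-minus-short score. Higher genes, 4855 as deposited, ran from 2803 to 4844 when 1 library was left out (at least 2-fold 2252 to 3238), and lower genes, 2094, from 929 to 2297 (at least 2-fold 763 to 1519). Lower genes were 3288 with median centring, 3235 with quantile normalization and 3204 with trimmed mean scaling (at least 2-fold 1959, 1989 and 1914), and genes higher at least 2-fold were 1954 with quantile normalization. With the score as covariate 1627 genes were higher and 595 lower (at least 2-fold 1133 and 409); the cause was not tested. Centring without MEKi/L replicate 1, chosen after seeing the data, gave 3349 lower genes and 1755 higher at least 2-fold. Under the score Dnmt1 (−0.18), Sgce (0.18), Il17rd (−1.01), Lin28a (−0.95) and Dppa5a (0.39) changed sign, as did Lin28a under that centring (−0.50). Dnmt1 and Dppa5a were not called with the score, and Il17rd and Lin28a were not called as deposited. Replicates 2 and 3 of each group were set against their own mean, and the deviations of same-numbered libraries correlated at r = 0.03. The value is the same for both numbers by construction, and it does not show how the cultures were separated. A fit with the replicate number as a block gave 4182 higher and 1668 lower genes. With 2 libraries on the GSK3i/L side, leaving out 1 assumes that the other varies like the remaining groups.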
